A study of Mus musculus with 4 samples.

Results

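The genes described here are 33 structural genes of the dermis, picked by symbol from a count table of 56953 genes. They are fibrillar, beaded-filament and basement membrane collagens, proteoglycans, elastic fibre genes, matricellular proteins, cross-linking enzymes and proteins used to recognise fibroblasts. Matrix proteases and their inhibitors were kept out of the set. Each of the 33 symbols matched 1 row of the table. The samples were skin of wild-type C57BL/6J mice, harvested after topical treatment of the back for 3 days. The treated group of 2 libraries had NEDD8i at 10 µM, named in the labels by that word alone, and the control group of 2 had DMSO, the solvent. The age of the mice, and whether each library came from a separate mouse, were given in none of the sources used here, so p-values measure the spread between these libraries, which may be technical.

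Fibroblasts secrete collagen as a helix of several chains that is trimmed outside the cell, assembles into fibrils and is cross-linked by lysyl oxidases. Small leucine-rich proteoglycans and dermatopontin coat the fibrils, and fibrillin microfibrils carry the elastin of elastic fibres. Collagen I and collagen III make up most of the collagen of normal mouse dermis, and their messenger RNAs are among the abundant ones of dermal fibroblasts.

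Libraries were made with a 3′ tag method, in which reads fall near the end of polyadenylated transcripts. Totals ran from 5639791 to 8856572 counts, of which 52.6% to 61.7% fell on 3 ribosomal RNA genes, leaving 2287839 to 3654442 reads for other genes. DMSO replicate 2 was the shallowest library and held a read for 25 of the 33 genes, against 31 in each other library. DMSO replicate 1 stood apart in its hair genes, with 1.73% of reads outside ribosomal RNA on 13 hair shaft and inner root sheath genes, against 0.00503% in the other DMSO library and, after NEDD8i, 0.0035% in replicate 1 and 0.107% in replicate 2. It also held 532 adipocyte list reads, of which Fabp4 took 493, against 47, 119 and 82 in the others.

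The set took close to the same small share of each library, and its leading dermal collagens were nearly silent. In DMSO the 33 genes together drew 3124 and 2151 reads, replicate 1 first here and throughout, and after NEDD8i they drew 3418 and 3852. These were 0.111% (exact 95% binomial interval 0.107 to 0.115), 0.094% (0.0901 to 0.0981), 0.0935% (0.0904 to 0.0967) and 0.114% (0.11 to 0.118) of the reads outside ribosomal RNA, intervals that cover counting error only. The highest and the lowest share both lay among the NEDD8i libraries, so the groups overlapped, with 0.102% ± 0.0117 in DMSO and 0.104% ± 0.0145 after NEDD8i (mean ± SD, n = 2 each). A sum over the set was therefore about even, while its members differed from each other. Without Gsn, the most read of the 33, the shares were 0.0559% ± 0.00534 in DMSO and 0.0714% ± 0.0178 after NEDD8i (mean ± SD). The groups still overlapped in this check, which was added after seeing the data.

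A few genes carried most of these reads. Gsn, the actin-severing protein gelsolin, held 37.3% of them over the 4 libraries, and Postn, Vim, Sparc and Dcn brought the total to 78.5%. Gelsolin, vimentin and the surface glycoprotein Thy1 are made by many cell types besides fibroblasts. At the other end, 6 of the 33 genes stayed under 10 reads in every library. Fmod (fibromodulin) had 0 reads in all 4, which allows up to 0.543 CPM (the counts-per-million unit) in DMSO replicate 2, the shallowest. The library size in CPM is that after scaling by trimmed mean of M values (TMM), ribosomal RNA included.

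The label of full-thickness skin was set against the marker genes. In counts-per-million per kilobase of exon, ribosomal RNA left out of the total, Col1a1 stood at 0.896 and 0.737 in DMSO and 1.11 and 5.94 after NEDD8i. Krt14, the basal keratinocyte keratin, stood at 1518 and 3288.5 in DMSO and 3320.4 and 3137 on the same scale. Read numbers of a 3′ tag library do not grow with transcript length, so this scale is approximate. Endothelium had 31 and 6 reads over 12 marker genes in DMSO and 43 and 30 after NEDD8i, with Cdh5, which encodes VE-cadherin, at 0 throughout. The pericyte and smooth muscle list of 11 genes had 227, 93, 123 and 118 reads in library order. Its most read genes were Notch3, with 119, 53, 76 and 66, and Cspg4, with 63, 22, 17 and 15. Of its defining genes Acta2 had 4, 0, 2 and 0. Skeletal muscle genes, a marker of the layer under the dermis, had 174, 179, 263 and 381 reads. In bulk RNA, fewer fibroblasts and less RNA per fibroblast cannot be told apart, and the extraction text speaks of collected cells. Reads of Col1a1 were thus sparse beside abundant keratinocyte RNA. Which cells gave the reads of the other genes of the set was not tested.

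**Figure D1:**
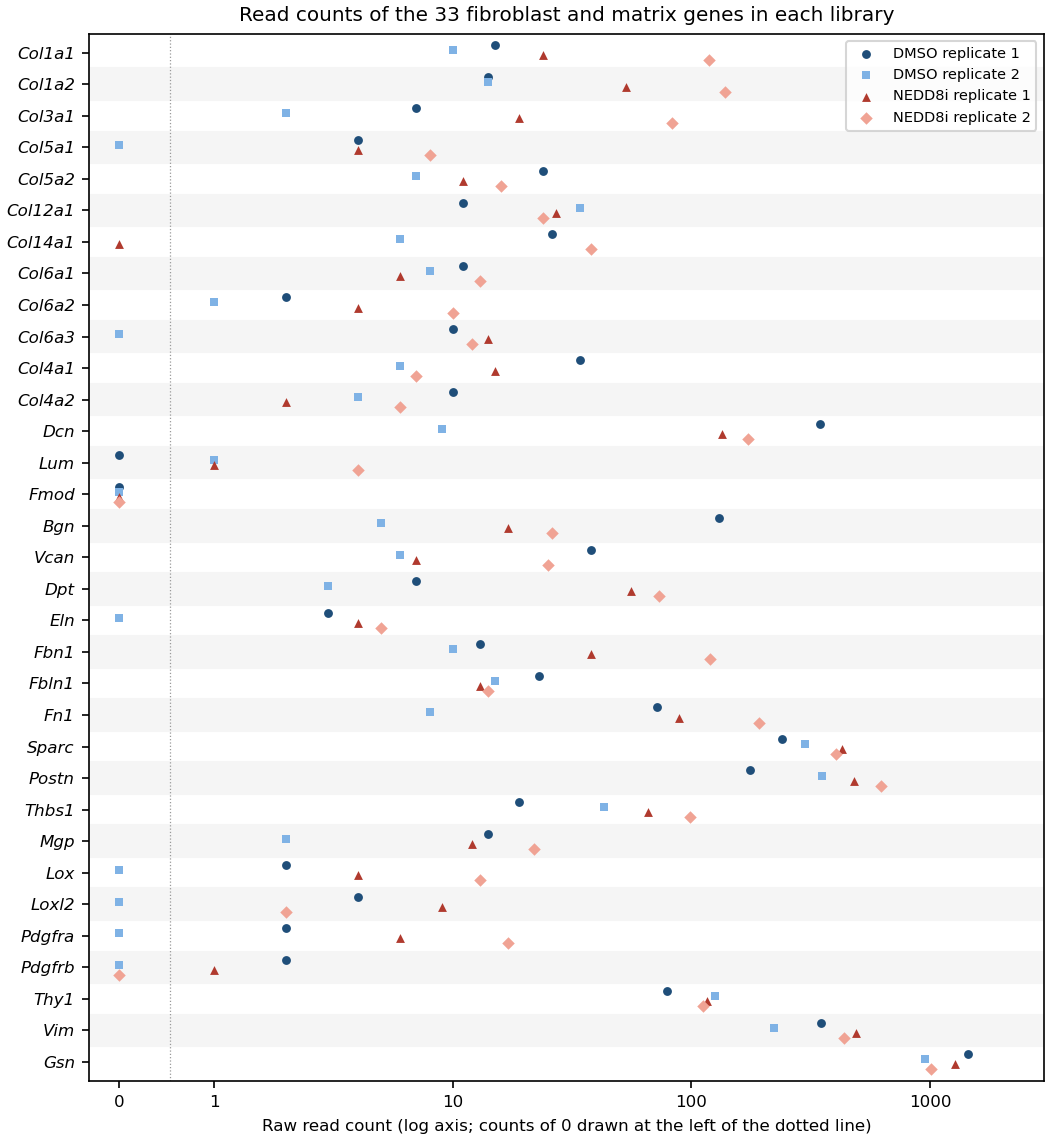
Raw read count of each of the 33 genes (rows) in each of the 4 libraries (points), on a log axis with counts of 0 drawn left of the dotted line. Col1a1, Col1a2, Col3a1, Fbn1 and Dpt have both NEDD8i points to the right of both DMSO points, Dcn and Bgn have DMSO replicate 1 far to the right of DMSO replicate 2, and Fmod is at 0 in every library.

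Whether NEDD8i changed these transcripts was tested with edgeR's quasi-likelihood test over all 11388 genes that passed its filter on low counts, with Benjamini-Hochberg adjustment over all of them. Of the 33 genes 23 were tested, and 1 of these passed an adjusted p of 0.05, beside 0.782% of all tested genes. It was Dpt, which rose, where 0.667% of all tested genes rose. None fell, beside 0.114% of all, and 0 were lower at an unadjusted p under 0.05 (7.86% of all). DESeq2 and limma-voom called 0 members lower, beside 177 and 2 of all 11388 tested genes. DESeq2 called 4 members higher (Dpt, Col1a2, Col3a1 and Fbn1), beside 2.08% of all tested genes, and limma-voom called 0, beside 0.220%. Without DMSO replicate 1, 7 of 26 tested members were called higher and 0 lower, beside 5.62% of all tested genes higher. Without DMSO replicate 2, 7 of 27 were called higher and 2, Dcn and Bgn, lower, beside 5.09% and 5.61% of all. Without NEDD8i replicate 1 or NEDD8i replicate 2, 0 members were called in either direction, beside 0.368% and 0.387% of all. Dcn was called in both fits that kept a single DMSO library, in opposite directions. Its log2 fold change was 3.50 when DMSO replicate 2 was the one kept and -1.37 when it was DMSO replicate 1. The median log2 fold change of the 23 was 0.20, with 12 above and 11 below 0, beside a median of 0.00 over all tested genes. At an unadjusted p under 0.05 there were 5 higher members, Dpt, Col1a2, Fbn1, Col3a1 and Col1a1, which is 21.7% of 23 beside 8.62% of all tested genes. Both NEDD8i libraries exceeded both DMSO libraries in 9 of the 23 (39.1%, beside 25.0% of all tested genes), and both lay below in 2 (8.7%, beside 22.9%). Dpt and Col3a1 reached the filter's minimum of 1.35 CPM in the NEDD8i libraries and in neither DMSO library, so they could enter the test through the group in which they were high.

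Dpt encodes dermatopontin, a small extracellular protein that binds decorin and collagen fibrils and is abundant in dermis. It had 7 and 3 reads in DMSO, against 56 and 73 after NEDD8i. The groups did not overlap, and the NEDD8i libraries were close to each other. Its level was 0.772 ± 0.323 CPM in DMSO and 7.86 ± 1.28 CPM after NEDD8i (mean ± SD over 2 libraries), and the log2 fold change was 3.29 (edgeR: SE 0.58, 95% interval 1.98 to 4.60, adjusted p = 0.0446). Counting error alone put the ratio of the summed reads, 9.86, between 5.19 and 21.1 at 95%. The gene (ENSMUSG00000026574.6) lies on chromosome 1 from 164624213 to 164651835 on the plus strand in the deposited table, whose build is taken to be GRCm39, and no other listed gene shares its exons. The rise was between 2.97 and 3.80 on the log2 scale with any 1 library left out, a lone library being taken to vary like the other group. It missed the threshold without NEDD8i replicate 1 (adjusted p = 0.122), without NEDD8i replicate 2 (0.227), with limma-voom (0.138), without the robust option (0.0731), without scaling (0.0708) and without ribosomal RNA (0.0506).

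None of the fibrillar collagens passed by edgeR, while DESeq2 called Col1a2 and Col3a1 higher. Col1a2, the second chain of collagen I, had 14 reads in each DMSO library against 53 and 138 after NEDD8i. Its log2 fold change was 2.35 (edgeR: SE 0.55, 95% interval 1.09 to 3.61, adjusted p = 0.0927), and the groups did not overlap. Col1a1, the more plentiful chain of the collagen I molecule, had 15 and 10 reads against 24 and 119. Here NEDD8i replicate 1 was near the DMSO level, at 2.98 CPM against 2.14 and 1.81, while NEDD8i replicate 2 stood at 14.3 (log2 fold change 2.11, edgeR SE 0.73, adjusted p = 0.199). Col3a1, which encodes collagen III, had 7 and 2 reads against 19 and 83 (log2 fold change 3.10, edgeR SE 0.86, adjusted p = 0.133). In all 3 genes NEDD8i replicate 2 was higher than NEDD8i replicate 1, by 4.80 times for Col1a1, 2.52 times for Col1a2 and 4.23 times for Col3a1 in CPM. Without NEDD8i replicate 2 the log2 fold changes were 0.57 for Col1a1, 1.52 for Col1a2 and 1.72 for Col3a1. The collagen V chains, which help to set fibril diameter, were sparser. Col5a2 had 24 and 7 reads against 11 and 16, a log2 fold change of -0.53 that turned to 0.36 without DMSO replicate 1, and Col5a1 had 4 and 0 against 4 and 8, too few to test. As a group the 5 fibrillar chains took 64, 33, 111 and 364 reads in library order, so that NEDD8i replicate 2 held most of them. Hair genes were also higher in that library than in NEDD8i replicate 1, at 0.107% against 0.0035% of reads outside ribosomal RNA. DMSO replicate 1 was the library highest in hair genes, at 1.73%, and held 64 of the fibrillar chain reads. The part of hair in the result was not tested.

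Promoters of Dpt, the gene that rose, and of the collagen genes Col1a2 and Col3a1 are shown to set these 3 side by side, as 300 bases each from RefSeq. Each runs from 250 bases before to 50 after the start on the GRCm38.p6 build, and capitals mark the TATA box, spelled TATAAA, the NF-Y box, which reads CCAAT, and the GC box, searched as GGGCGG, all on either strand.
Dpt, chr1:164796413-164796712, plus strand: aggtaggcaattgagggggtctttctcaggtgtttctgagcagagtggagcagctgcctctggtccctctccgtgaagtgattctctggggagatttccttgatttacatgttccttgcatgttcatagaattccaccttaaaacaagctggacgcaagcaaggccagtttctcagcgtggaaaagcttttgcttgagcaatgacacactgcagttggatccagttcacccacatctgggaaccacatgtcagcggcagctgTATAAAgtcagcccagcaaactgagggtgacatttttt
Col1a2, chr6:4505368-4505667, plus strand: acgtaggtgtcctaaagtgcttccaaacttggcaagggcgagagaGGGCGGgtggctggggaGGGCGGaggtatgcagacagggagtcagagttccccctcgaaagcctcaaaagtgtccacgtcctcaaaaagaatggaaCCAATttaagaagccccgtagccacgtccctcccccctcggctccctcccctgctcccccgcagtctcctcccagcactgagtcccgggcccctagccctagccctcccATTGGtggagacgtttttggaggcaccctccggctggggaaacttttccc
Col3a1, chr1:45311288-45311587, plus strand: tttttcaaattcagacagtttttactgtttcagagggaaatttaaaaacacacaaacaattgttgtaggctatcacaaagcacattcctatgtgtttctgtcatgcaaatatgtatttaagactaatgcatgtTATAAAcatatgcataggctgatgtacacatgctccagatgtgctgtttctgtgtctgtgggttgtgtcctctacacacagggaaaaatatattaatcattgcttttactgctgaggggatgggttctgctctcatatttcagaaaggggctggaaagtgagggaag
Dpt and Col3a1 each held 1 TATAAA, starting at position 13 after the start in Dpt and at -117 in Col3a1. Col1a2 held the NF-Y box on each strand, at -109 and 1, and the GC box at -205 and -188. Promoters were matched for 19 of the 33 genes, of which 3 held the TATA box, 7 the NF-Y box and 9 the GC box, or 15.8%, 36.8% and 47.4%. Of 32851 promoters of the same length 13.6%, 37.4% and 35.7% did. The motifs did not overlap each other in these windows, and a match is a description of letters and not a site in use.

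Among the elastic fibre genes, Fbn1 had values close to those of collagen I. Fbn1 encodes fibrillin 1, the backbone of microfibrils, and had 13 and 10 reads in DMSO and 38 and 120 after NEDD8i. The groups did not overlap, at 1.83 ± 0.0332 and 9.57 ± 6.86 CPM (mean ± SD over 2 libraries), with a log2 fold change of 2.37 (edgeR: SE 0.62, adjusted p = 0.117). The fold change was 1.34 without NEDD8i replicate 2. Fbln1 (fibulin 1), which binds elastin and fibronectin, lay the other way, with 23 and 15 reads against 13 and 14, a log2 fold change of -0.86 (edgeR: SE 0.60, adjusted p = 0.533). Eln, elastin itself, had 3 and 0 reads against 4 and 5, at the limit of detection.

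**Figure D2:**
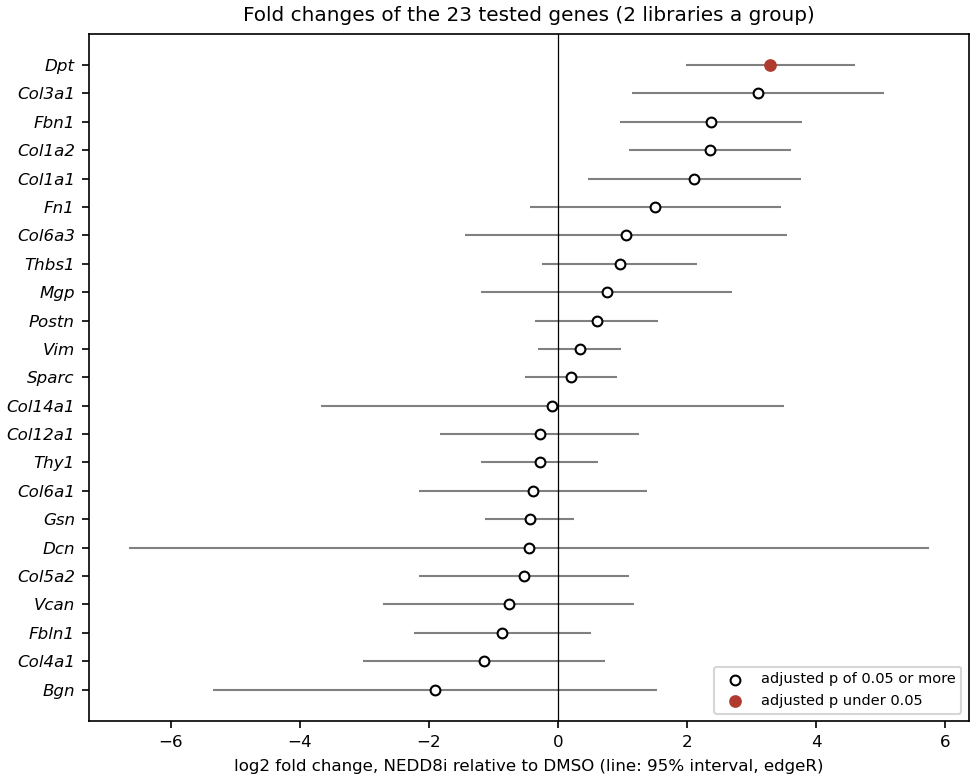
Log2 fold change of NEDD8i relative to DMSO (horizontal axis) for the 23 tested genes, with edgeR 95% intervals as lines and a filled point for an adjusted p under 0.05. Dpt is the filled point at 3.29, Col3a1, Fbn1, Col1a2 and Col1a1 follow between 3.10 and 2.11 as open points, and the interval of Dcn spans from -6.64 to 5.75.

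Other collagens were sparse and mixed. Collagen VI forms beaded filaments around cells. Col6a1 had 11 and 8 reads against 6 and 13, Col6a2 had 2 and 1 against 4 and 10, and Col6a3 had 10 and 0 against 14 and 12. Of these Col6a1 and Col6a3 were tested, at -0.38 and 1.05, with edgeR adjusted p = 0.86 and 0.695. The fibril-associated chains Col12a1 and Col14a1, which bridge fibrils, stood at -0.29 and -0.09. Col14a1 had 26 and 6 reads in DMSO but 0 in NEDD8i replicate 1 and 38 in NEDD8i replicate 2, so the NEDD8i libraries spanned the DMSO ones. Collagen IV is the network former of basement membranes, and its paired genes were sparse. Col4a1 had 34 and 6 reads against 15 and 7 (log2 fold change -1.15, edgeR adjusted p = 0.545), which turned to 0.30 without DMSO replicate 1, and Col4a2 had 10 and 4 against 2 and 6. The exons of Col4a1 and Col4a2 overlap on opposite strands in the table, and no source used here says whether the counting used strand, so their reads could be mixed.

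The proteoglycans Dcn, Bgn and Vcan differed more between the DMSO libraries than between the groups. Dcn encodes decorin, which coats collagen fibrils and gives fibroblasts a common marker, and had 345 reads in DMSO replicate 1 but 9 in DMSO replicate 2, with 135 and 173 after NEDD8i. Bgn, its close relative biglycan, had 130 and 5 reads against 17 and 26. In CPM the DMSO replicates differed by 30.3 times for Dcn and 20.5 times for Bgn, and the NEDD8i libraries lay between them. Fold changes over all 4 libraries were -0.45 for Dcn (edgeR: SE 1.75, 95% interval -6.64 to 5.75, adjusted p = 0.932) and -1.91 for Bgn (edgeR: SE 1.29, adjusted p = 0.556). Without DMSO replicate 1 these became 3.50 and 1.51, and without DMSO replicate 2 they became -1.37 and -2.80, so the sign depended on which DMSO library was kept. DMSO replicate 1 was also the library highest in hair and adipocyte genes, and the part of that in Dcn and Bgn was not tested. Vcan (versican), a large proteoglycan of the dermal papilla at the base of the hair follicle, had 38 and 6 reads against 7 and 25. The dermal papilla list of 7 genes had 84, 41, 15 and 42 reads in library order. Of its 2 tested genes, Wif1 and Rspo3, 0 passed, with log2 fold changes of -0.97 and -2.33. By edgeR 1 of the 2, Rspo3, was lower at an unadjusted p under 0.05, beside 7.86% of all tested genes. Rspo3 had 18 and 34 reads against 1 and 13. Lum (lumican) had 0 and 1 reads against 1 and 4.

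**Figure D3:**
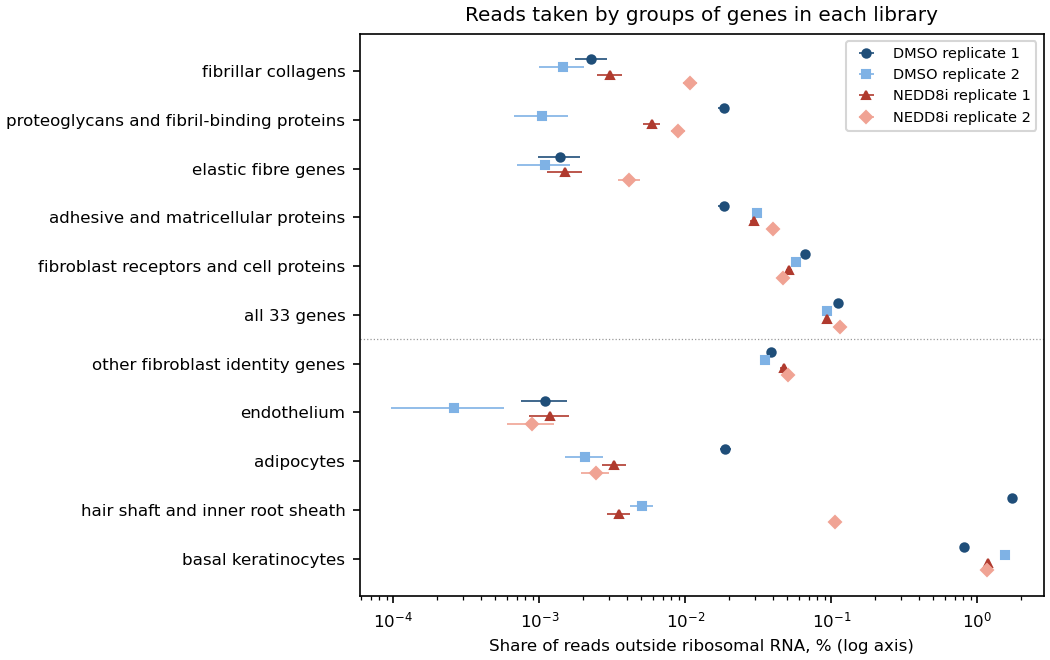
Percent of reads outside ribosomal RNA (log axis) taken by groups of genes in each library, with exact 95% binomial intervals as bars; the rows above the dotted line are the 33 genes and roles within them, and those below are marker lists. The 33 genes lie between 0.0935% and 0.114% in all libraries, fibrillar collagens are highest in NEDD8i replicate 2 at 0.0108%, and proteoglycans, adipocyte and hair genes are highest in DMSO replicate 1.

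The 5 adhesive and matricellular genes had positive log2 fold changes that missed the threshold, and that of Sparc turned to -0.11 without DMSO replicate 1. Postn (periostin), a matricellular protein induced in wounds, had 176 and 352 reads against 480 and 625 (log2 fold change 0.60, edgeR SE 0.42, adjusted p = 0.533). In CPM DMSO replicate 2, at 63.8, lay between the NEDD8i libraries at 59.6 and 75.1, so the groups overlapped. The log2 fold change of Postn was 0.069 without DMSO replicate 1 and 1.44 without DMSO replicate 2. Sparc, a collagen-binding glycoprotein, was even, at 44.2 ± 14.3 and 50.8 ± 3.09 CPM (mean ± SD over 2 libraries), with a 95% interval of -0.51 to 0.91 on the log2 scale. Thbs1 (thrombospondin 1), an activator of latent TGF-beta, had 19 and 43 reads against 66 and 99, a log2 fold change of 0.95 (edgeR: SE 0.53, adjusted p = 0.424). For Thbs1 it was 0.36 without DMSO replicate 1 and 1.90 without DMSO replicate 2, a fit in which it passed (edgeR adjusted p = 0.00672). Fn1 (fibronectin) had 72 and 8 reads against 89 and 192. Its groups did not overlap, the nearest being DMSO replicate 1 at 10.3 CPM and NEDD8i replicate 1 at 11.1. It had the widest DMSO gap of the 5, 7.10 times in CPM, and a log2 fold change of 1.51 (edgeR: SE 0.81, adjusted p = 0.424) that was 3.53 without DMSO replicate 1 and 0.75 without DMSO replicate 2. Mgp (matrix Gla protein), an inhibitor of calcification, had 14 and 2 reads against 12 and 22.

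The cross-linking enzymes and growth factor receptors were at the limit of detection. Lox (lysyl oxidase) had 2 and 0 reads against 4 and 13, 6.5 times as many for the library sizes, with counting limits of 1.54 and 58 at 95%. Loxl2 had 4 and 0 against 9 and 2. Pdgfra, the PDGF receptor that marks fibroblasts, had 2 and 0 reads against 6 and 17, 8.79 times as many, with limits of 2.17 and 76.9. Pdgfrb, the receptor of pericytes and some fibroblasts, had 3 reads in the 4 libraries together. None of these 4 genes could be tested, and the intervals cover counting error and not the spread between libraries.

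Of the cell proteins, none passed by edgeR. Vim, the intermediate filament of mesenchymal cells, stood at 45 ± 7.07 CPM in DMSO and 56.7 ± 5.82 after NEDD8i (mean ± SD over 2 libraries). Its log2 fold change was 0.33 with a 95% interval of -0.31 to 0.97. Gsn stood at 189.5 ± 22.6 and 139.6 ± 25.3 CPM, with a log2 fold change of -0.44 (edgeR: SE 0.30, adjusted p = 0.525), and both NEDD8i libraries lay below both DMSO ones. Thy1 had 79 and 126 reads against 116 and 112 (log2 fold change -0.29). These intervals leave room for changes of some size in either direction, so they do not show that the genes were unaffected.

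**Figure D4:**
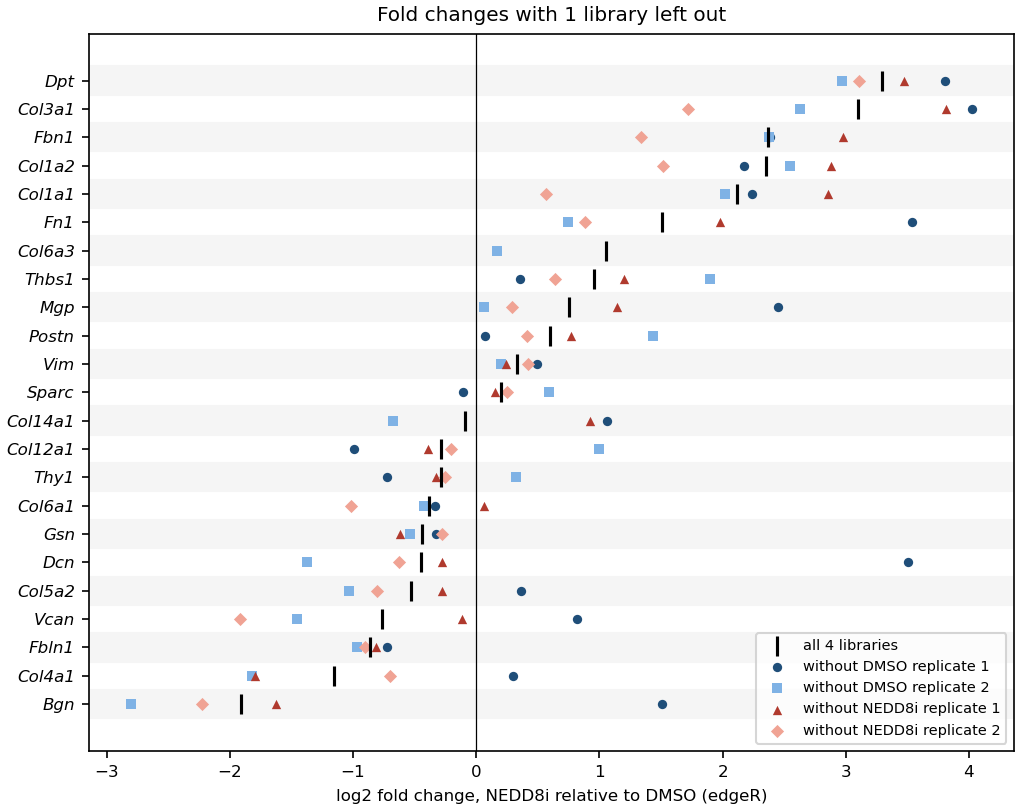
Log2 fold change of NEDD8i relative to DMSO from edgeR with all 4 libraries (black bars) and with each library left out (points) for the tested genes; points are missing where the gene was not tested or where the remaining library of a group had 0 reads. Dpt stays between 2.97 and 3.80, Dcn moves from -1.37 to 3.50 and Bgn from -2.80 to 1.51, and Col1a1 drops to 0.57 without NEDD8i replicate 2.

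The wider matrix programme was read from gene lists. For these and the marker lists below, the shares of all tested genes past the threshold were 0.667% higher and 0.114% lower by edgeR. By DESeq2 2.08% were higher, and 177 of 11388 were lower. By limma-voom 0.220% were higher, and 2 of 11388 were lower. At an unadjusted p under 0.05 by edgeR, 8.62% were higher and 7.86% were lower. Genes for collagen modification and processing, enzymes and others, numbered 29, of which 15 were tested. They had 0 past the threshold by edgeR, by DESeq2 and by limma-voom. Of these genes 1, Creb3l1, which is not an enzyme, was lower at an unadjusted p under 0.05, with 16 and 10 reads against 3 and 4. Their median log2 fold change was -0.23. Here and in the lists that follow, a gene that is neither past the threshold nor among the most read was picked with its values in view. The abundant members P4hb, a subunit of prolyl hydroxylase, and Mia3, which loads procollagen for export, stood at 0.29 and -0.18. Other collagen chains had 0 of 9 past it by all 3 tools, 1 lower at an unadjusted p under 0.05, Col23a1, and a median of -0.84. Col17a1, the hemidesmosome collagen of keratinocytes, had 2208, 2026, 3215 and 2209 reads, more than the 5 fibrillar chains together in each library, and a log2 fold change of -0.04, while Col18a1 stood at 0.45. Laminins and other basement membrane glycoproteins had 0 of 14 past it by all 3 tools, with 2 higher (Nid1 among them) and 3 lower (Lama5, Fras1 and Frem2) at an unadjusted p under 0.05 and a median of 0.01. Agrn, the proteoglycan agrin, had a log2 fold change of 0.14. Microfibril partners had 0 of 7 by edgeR and limma-voom, 1 by DESeq2, Emilin2, and 1 in each direction at an unadjusted p under 0.05, Emilin2 and Ltbp4. Emilin2 had 0 reads in both DMSO libraries against 17 and 24, at least 10.4-fold higher over a floor of 3 counts for the group, so it entered the test through the NEDD8i libraries. Their median was 0.19, and Ltbp4 and Ltbp3, which anchor latent TGF-beta, stood at -1.44 and -0.45.

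Of other proteoglycans and matricellular genes 1 of 11 tested rose and 0 fell by edgeR, and of the TGF-beta ligands, receptors and targets 1 of 14 rose and 0 fell. In both it was Ccn2, a matricellular growth factor that TGF-beta induces, with 38 and 72 reads against 412 and 371 (log2 fold change 2.38, edgeR SE 0.42, adjusted p = 0.0458). The medians were 0.15 and 0.40. DESeq2 called 2 higher and 1 lower in the first list and 1 higher in the second, and limma-voom 0 in both, while 3 were higher in each (Ccn2, Thbs2 and Spon2, then Ccn2, Tgfbr2 and Smad3) and 1 lower in the first (Smoc2) at an unadjusted p under 0.05. Thbs2 and Smoc2, the further DESeq2 calls, had 66 and 129 reads against 485 and 467, and 177 and 127 against 73 and 53 (log2 fold changes 1.83 and -1.64, edgeR adjusted p = 0.0866 and 0.0703).

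Other fibroblast identity genes, 22 listed and 11 tested, had 0 past the threshold by edgeR and limma-voom and 2 by DESeq2 (Clec3b and Prrx1), with 3 higher (these and Pi16) at an unadjusted p under 0.05 and a median of 0.41. S100a4 and Cd34, the most read, stood at 0.08 and 0.71, and both are also expressed outside fibroblasts. Clec3b, which encodes tetranectin, had 5 and 3 reads against 47 and 55 (log2 fold change 3.26, edgeR adjusted p = 0.0525). Pi16, a marker of adventitial fibroblasts, had 8 and 0 against 59 and 212 (edgeR adjusted p = 0.0958). Prrx1, a mesenchymal transcription factor, had 0 in both DMSO libraries against 20 and 16, at least 9.17-fold higher over a floor of 3 counts for the group (edgeR adjusted p = 0.0904). Dpp4, another adventitial fibroblast gene, had 33 and 19 against 21 and 14, a log2 fold change of -0.93, so not every gene of the list was higher after NEDD8i. Clec3b, Pi16 and Prrx1 reached the filter minimum in both NEDD8i libraries and in neither DMSO library, so they could enter the test through the group in which they were high, as could Spon2 and Emilin2.

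The part of other cell types in these results was not tested, and their marker lists had the values that follow. Macrophage genes (8 listed, 5 tested, 0 past the threshold by edgeR, 1 higher at an unadjusted p under 0.05) had 184, 100, 284 and 252 reads, and of the most read C1qa had 35 and 30 reads against 125 and 99 and Csf1r had 77 and 32 against 53 and 66, log2 fold changes of 1.39 and -0.22. Schwann cell genes, 4 of 6 tested with 0 past it and 1 higher at that unadjusted p (Mbp), had 126, 138, 262 and 318. Skeletal muscle genes had 0 of 9 past it and 0 at that unadjusted p, adipocyte genes 0 of 3 and 0, and hair genes 0 of 13 and 0. Pericyte genes had 0 of 3 past it and 1 lower at that unadjusted p (Cspg4). Basal keratinocyte genes, 8 tested with 0 past it and 0 at that unadjusted p, took 0.81%, 1.55%, 1.18% and 1.16% of reads outside ribosomal RNA. Among 7 tested suprabasal keratinocyte genes 1 fell, Lor, which encodes loricrin of the cornified envelope, with 2377 and 613 reads against 199 and 247 (log2 fold change -3.05, edgeR adjusted p = 0.0377).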

How the data were processed

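Counts came from 4 skin libraries made with QuantSeq 3′ FWD, per the labels' protocols. The authors deposited raw read counts per gene in the featureCounts layout, per the file headers, with summed exon lengths. The submitters' processing notes list STAR, featureCounts, DESeq2, GRCm38 and GRCm39, with settings, strand use and treatment of multi-mapping reads not given in the sources used here. Only 2.7% of 52029 matched genes start where GENCODE M21 (GRCm38) puts them, so coordinates are taken to be GRCm39. Promoter sequences are RefSeq's on GRCm38.p6.

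Groups and columns were taken from the labels, and 0 sample columns were left unused. Testing used R 4.3.3 and edgeR 4.0.16: TMM, filterByExpr defaults (minimum count 10), a robust quasi-likelihood F test on the group alone, and Benjamini-Hochberg adjustment at 0.05 over all tested genes. Alternatives used DESeq2 1.42.0 and limma 3.58.1. The steps were tested on simulated data. Every pair of libraries differed beyond sampling noise, with chi-square 24.1 to 68.5 per degree of freedom. The lowest value was that of the NEDD8i libraries. The DMSO libraries stood at 34.5, above DMSO replicate 2 and NEDD8i replicate 2 at 30.5. A floor is 3 counts, 0.36 to 0.543 CPM, and floors and intervals cover counting error only. All 33 members were described, and from other lists up to 4 genes past the threshold or the 2 with most reads. One gene that this rule names is not reported here. Members and lists were chosen with earlier results of these data known.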

Additional observations from a re-analysis of the deposited data

How the results depend on the processing

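The count of members past the threshold was 1 of 23 tested, beside 89 of 11388 genes. It was 0 with limma-voom, without the robust option, with library sizes without TMM and without ribosomal RNA. With DESeq2 it was 4 of 23 (Dpt, Col1a2, Col3a1 and Fbn1), beside 414 of 11388 genes. Without a filter it was 6 of 32, with Col1a1 and Fn1 added, beside 703 of 23633 genes. Leaving out 1 library gave 0 to 9 members, 0 without either NEDD8i library. With 1 library in a group, its spread is assumed to be like the other group's. Over all genes the count was 89, and 47 without TMM, 703 without a filter, 414 with DESeq2, 27 with limma-voom, 48 without the robust option and 44 to 1358 with 1 library left out. The members' median log2 fold change was 0.71 without a filter, when 32 were tested, and 0.022 to 1.28 with 1 library left out. Without TMM the median of all genes shifted to -0.22 and that of the members to 0.01.

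Labels give both groups replicates 1 and 2, and the correlation of same-numbered deviations was -0.13. With 2 libraries a group, pairing the numbers crosswise gives the same value with its sign turned, 0.13. This correlation therefore cannot decide whether the numbers pair the samples. With the replicate number as a block, 285 genes and 1 member were called and Dcn turned to 0.67. In a crossed block, added after seeing the data, 483 of 11388 genes and 5 of 23 members were called, and Dcn was at 0.67.

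Without the most abundant member, Gsn, the log2 ratio of the set's share went from 0.02 to 0.35. With Gsn kept, the ratio was -0.13 to 0.16 with 1 library left out. These checks were also added after seeing the data. With limma-voom Dcn was at 0.87 and Col12a1 at 0.088. Leaving out 1 library turned the sign of 10 members, whose ranges were -1.37 to 3.50 for Dcn, -2.80 to 1.51 for Bgn, -1.92 to 0.82 for Vcan, -1.82 to 0.30 for Col4a1, -1.03 to 0.36 for Col5a2, -0.99 to 0.999 for Col12a1, -7.07 to 1.06 for Col14a1 (the low end against a library with 0 reads, so its size depends on the prior count), -1.02 to 0.063 for Col6a1, -0.72 to 0.32 for Thy1 and -0.11 to 0.59 for Sparc. The causes were not tested. At this depth 10 of the 33 genes had too few reads to test.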
